A study of Mus musculus with 12 samples.

Results

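The 10 genes described here encode enzymes that break down the branched-chain amino acids leucine, isoleucine and valine, together with the kinase and the phosphatase that set the activity of the committed enzyme. They were chosen by symbol, *Bcat2*, *Bckdha*, *Bckdhb*, *Dbt*, *Bckdk*, *Ppm1k*, *Ivd*, *Mccc1*, *Mccc2* and *Hibadh*, and are 10 of the 55401 genes in the count files. All 10 passed the filter on low counts, as did 16540 genes in all. RNA was sequenced from subcutaneous white adipose tissue (scWAT) of 12 female C57BL/6J mice, aged 16 weeks at the start, with 3 mice in each of 4 groups: wild-type mice (*Jmjd1a* +/+, WT) and mice homozygous for the HY allele (*Jmjd1a* HY/HY, HY/HY below), each held for 1 week at 30°C or at 8°C. All mice were caged singly and had first been held at 30°C for 1 week. The HY allele, made by CRISPR-Cas9 in fertilized eggs, replaces a histidine of the histone demethylase JMJD1A with tyrosine and removes its catalytic activity. The mutation is present in every cell of the mouse, and the females carrying it came from a single line, so an effect of the allele in adipocytes, in other cells or in the line cannot be told apart.

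Branched-chain amino acids enter the mitochondrion, lose their amino group to 2-oxoglutarate and are then oxidatively decarboxylated by the branched-chain ketoacid dehydrogenase complex. This complex is switched off when its kinase BCKDK phosphorylates it and on when the phosphatase PPM1K removes the phosphate. Beyond the complex the carbon skeletons follow separate routes, of which leucine ends in acetyl-CoA and acetoacetate, valine in propionyl-CoA, and isoleucine in both acetyl-CoA and propionyl-CoA. White adipocytes express the pathway strongly as they differentiate, and brown and beige adipocytes burn branched-chain amino acids during cold exposure.

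The libraries held 13592629 to 26352081 read pairs on genes of the sense strand, and every library at 8°C was shallower than every library at 30°C. Levels are given as CPM, which scales counts by library size after TMM correction. The summed level of 7 white adipocyte markers lay between 13630 and 43113 CPM over the 12 libraries. The 6 thermogenic markers summed to 61–231 CPM at 30°C, to 8330–9240 CPM in WT mice at 8°C and to 525–1665 CPM in HY/HY mice at 8°C. *Kdm3a*, the gene that encodes JMJD1A, lay between 35.7 and 61.7 CPM in all libraries, and counts per gene do not show the substitution itself. Replicate 2 of the WT mice at 30°C held 1498 CPM of skeletal muscle markers against at most 24.6 CPM in any other library. Replicate 3 of the HY/HY mice at 30°C held 39822 CPM of white adipocyte markers against 13630 and 21665 CPM in its group. That sum lay within the 29558–43113 CPM of the HY/HY mice at 8°C, but its thermogenic markers, at 231 CPM, lay below every library at 8°C. In bulk tissue, fewer cells of a type and less RNA per cell cannot be told apart.

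Promoter sequences are shown for 3 genes on which the results turn, the kinase and phosphatase genes *Bckdk* and *Ppm1k*, and *Bckdha*, whose product they modify. Each runs from 250 bases before to 50 bases after the RefSeq start site, 5′ to 3′ on the strand of the gene, in build GRCm38.p6. *Bckdha* is read from the minus strand at chr7:25658712-25659011, *Bckdk* from the plus strand at chr7:127903823-127904122 and *Ppm1k* from the minus strand at chr6:57535438-57535737. Capitals mark a CCAAT box (CCAAT or its reverse complement ATTGG) or a GC box (GGGCGG or its reverse complement CCGCCC).
Bckdha: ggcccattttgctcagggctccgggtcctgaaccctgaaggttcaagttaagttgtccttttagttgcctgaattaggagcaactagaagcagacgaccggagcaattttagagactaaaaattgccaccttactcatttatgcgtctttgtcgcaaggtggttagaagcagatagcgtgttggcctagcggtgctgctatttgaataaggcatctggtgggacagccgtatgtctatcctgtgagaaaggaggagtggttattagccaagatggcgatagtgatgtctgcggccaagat
Bckdk: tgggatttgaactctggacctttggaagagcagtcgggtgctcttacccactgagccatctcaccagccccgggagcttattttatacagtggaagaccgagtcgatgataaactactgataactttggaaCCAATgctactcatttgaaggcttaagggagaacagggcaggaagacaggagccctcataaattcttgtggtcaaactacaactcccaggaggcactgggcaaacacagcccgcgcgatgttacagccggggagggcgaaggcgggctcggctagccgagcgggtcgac
Ppm1k: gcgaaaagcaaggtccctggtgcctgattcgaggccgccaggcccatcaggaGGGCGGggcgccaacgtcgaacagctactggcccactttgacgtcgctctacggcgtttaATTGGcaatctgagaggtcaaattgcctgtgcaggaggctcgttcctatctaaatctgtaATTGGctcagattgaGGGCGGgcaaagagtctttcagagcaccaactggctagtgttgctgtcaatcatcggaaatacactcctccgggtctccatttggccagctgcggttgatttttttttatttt
The *Bckdha* window has neither box, the *Bckdk* window has 1 CCAAT box, and the *Ppm1k* window has 2 CCAAT boxes and 2 GC boxes. RefSeq gave 11 windows for 9 of the 10 genes, with 2 each for *Bcat2* and *Bckdhb*, and *Dbt* was not matched. A CCAAT box was found in 8 of the 11 windows and in 37.4% of all 32851 promoter windows, and a GC box in 4 of the 11 and in 35.7% of all. Motifs bound by factors known for mitochondrial or cold-induced genes were also searched on both strands. The letters TCAAGGTCA of the ERR response element stood in 0.423% of all windows, GCGCATGC of the NRF-1 core in 2.71%, CCGGAAG of the ETS core bound by GABPA in 8.86%, and TGACGTCA of the cAMP response element in 1.79%. None of these 4 was found in the 11 windows, which says only that these letters are absent from them.

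**Figure D1:**
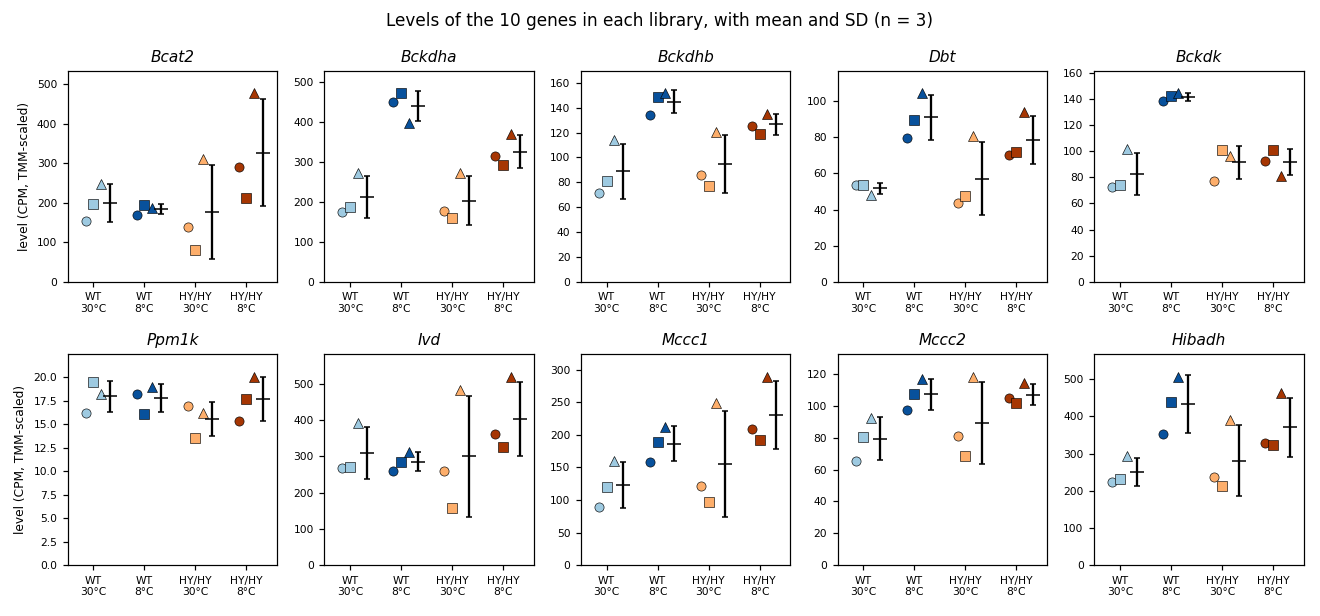
Level of each of the 10 genes in CPM (y axis, from 0) in the 12 libraries, by genotype and temperature (x axis), with 1 point per library (circle, square and triangle for replicates 1, 2 and 3) and the mean and SD of each group beside them (n = 3). *Bckdk* in WT mice at 8°C (138–144 CPM) lies above all other libraries. Replicate 3 of the HY/HY mice at 30°C is the highest library at 30°C for every gene but *Bckdk* and *Ppm1k*, though only narrowly for *Bckdha*.

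Both decarboxylase subunit genes were among the 3 highest of the 10 genes once levels were divided by merged exon length, and the kinase and phosphatase genes were lower than both. The lengths came from GENCODE M1 and the counts from GENCODE M25, so these levels are approximate. By CPM alone, *Ivd* stood higher in WT mice at 30°C, with a mean of 310 against 211 for *Bckdha* and 88.8 for *Bckdhb*. On the scale of CPM per kilobase of merged exons, *Bckdha* and *Hibadh* took the upper 2 places in each group, with 119 ± 29.6 and 112 ± 16.8 (SD, n = 3) in WT mice at 30°C. *Bckdhb* came next in each group and *Ppm1k* last, with 59.7 ± 14.9 and 3.23 ± 0.29 CPM per kilobase in the same mice. *Bckdk*, at 27.0 ± 5.27 CPM per kilobase, *Dbt*, at 15.7 ± 0.98, and *Mccc1*, at 11.8 ± 3.41, took places 7, 8 and 9 in each group. *Bcat2* and *Ivd*, at 51.1 ± 12.2 and 56.3 ± 13.1 CPM per kilobase, were neighbours that did not differ beyond the spread of their libraries.

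The first comparison asked how a week of cold changed the pathway in WT scWAT. Of the 10 genes, 5 rose, *Bckdha*, *Bckdhb*, *Dbt*, *Bckdk* and *Hibadh*, and 0 fell, at an adjusted p under 0.05 (edgeR quasi-likelihood fit, adjusted by Benjamini-Hochberg over all genes tested). Over all genes tested, 13.2% were called higher and 10.9% lower in this comparison. The median log2 fold change was 0.65 over the 10 genes and -0.07 over all genes. The 3 catalytic subunit genes of the dehydrogenase complex and its kinase thus rose together, while the phosphatase gene did not pass the test. At an unadjusted p under 0.05, 6 genes were higher and 0 lower, and DESeq2 also called 5 higher and 0 lower.

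*Bckdha* (chr7:25629852-25658782, GRCm38.p6) encodes the alpha subunit of the decarboxylase that begins the reaction of the complex and carries the sites that BCKDK phosphorylates. Its level was 175, 187 and 272 CPM in WT mice at 30°C and 451, 471 and 397 CPM at 8°C. All 3 libraries at 8°C lay above all 3 at 30°C, and the log2 fold change was 1.06 (SE 0.22, edgeR adjusted p = 0.00556). Counting both strands together left only 15.04% to 22.3% of the sense counts of *Bckdha*, and the rise passed the test on those counts too.

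*Bckdhb* (chr9:83925111-84124240), the beta subunit of the decarboxylase, stood at 71.5, 81.3 and 114 CPM at 30°C and at 134, 148 and 151 CPM at 8°C. The groups did not overlap, with a log2 fold change of 0.70 (SE 0.19, edgeR adjusted p = 0.0196). *Dbt* (chr3:116513070-116549981), the dihydrolipoyl transacylase that forms the core of the complex, stood at 53.8, 53.4 and 48.0 CPM at 30°C and at 79.4, 89.5 and 104 CPM at 8°C. Here too the groups did not overlap, and the log2 fold change was 0.82 (SE 0.21, edgeR adjusted p = 0.017).

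*Bckdk* (chr7:127904073-127909664), the kinase that inactivates the complex, stood at 141 ± 3.03 CPM (SD, n = 3) in WT mice at 8°C. Relative to the mean, this was the smallest SD of the 10 genes in that group. WT mice at 30°C had 72.7, 73.9 and 101 CPM, and those at 8°C had 138, 142 and 144 CPM. The lowest library at 8°C lay well above the highest at 30°C, with a log2 fold change of 0.78 (SE 0.15, edgeR adjusted p = 0.00366). *Ppm1k* (chr6:57506502-57535552), the phosphatase that activates the complex, had 16.2, 19.4 and 18.2 CPM at 30°C and 18.2, 16.1 and 19.0 CPM at 8°C. These groups overlapped, with a log2 fold change of -0.02 (SE 0.14, adjusted p = 0.945).

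Beyond the complex, the valine gene rose and the leucine genes did not pass the test. *Hibadh* (chr6:52546230-52640300), the mitochondrial 3-hydroxyisobutyrate dehydrogenase, went from 224, 233 and 293 CPM to 353, 439 and 507 CPM, without overlap and with a log2 fold change of 0.79 (SE 0.24, edgeR adjusted p = 0.033). *Ivd* (chr2:118861959-118882909), the isovaleryl-CoA dehydrogenase, had 267, 269.7 and 394 CPM at 30°C and 260.0, 285 and 313 CPM at 8°C. The *Ivd* groups overlapped, with a log2 fold change of -0.12 (SE 0.33, adjusted p = 0.831). *Mccc1* (chr3:35956292-36000694) and *Mccc2* (chr13:99948532-100015639) encode the alpha and beta subunits of 3-methylcrotonyl-CoA carboxylase. *Mccc1* had 89.7, 119.6 and 161 CPM at 30°C and 159, 189.7 and 212 CPM at 8°C, which overlapped, for a log2 fold change of 0.60 (SE 0.32, adjusted p = 0.192). *Mccc2* had 65.4, 80.6 and 92.4 CPM at 30°C and 97.4, 108 and 117 CPM at 8°C, which did not overlap, for a log2 fold change of 0.44 (SE 0.19, adjusted p = 0.106).

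*Bcat2* (chr7:45568967-45589710), the mitochondrial aminotransferase that takes the amino group off all of the branched-chain amino acids, did not pass the test in WT mice. It had 153, 197 and 248 CPM at 30°C and 169.8, 194 and 187 CPM at 8°C. The libraries at 8°C lay within the range of those at 30°C, with a log2 fold change of -0.12 (SE 0.41, adjusted p = 0.861). *Bcat1*, the cytosolic aminotransferase, was nearly absent, with 1.3 to 2.91 CPM over the 12 libraries.

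The number of genes called rested on single libraries. *Bckdha* and *Bckdk* passed the test whichever library was left out, but the count was 2 without replicate 3 at 8°C and 3 without replicate 1 or 2 at 30°C or replicate 2 at 8°C. White adipocyte markers summed to 16213–27360 CPM in WT mice at 30°C and to 24620–32643 CPM at 8°C, a sum carried by *Fabp4*, whose mean was 12293 CPM at 30°C and 20638 CPM at 8°C. Within this list *Adipoq* lay lower at 8°C without overlap, with a log2 fold change of -0.57 (SE 0.32, adjusted p = 0.212), and *Lep* fell, by the log2 fold change of -1.38 (SE 0.46, edgeR adjusted p = 0.0494). *Plin1*, *Cidec*, *Lipe* and *Pnpla2* had higher means at 8°C, with *Pnpla2* going from 1478 to 2562 CPM without overlap. The median log2 fold change of the list was 0.27, and none of its genes was called higher. Mammary epithelium markers summed to 2047–3682 CPM at 30°C and to 1371–1513 CPM at 8°C, and macrophage markers to 149.9–150.4 CPM and 114–125 CPM, in both cases without overlap. Thermogenic markers summed to 71.3–198 CPM at 30°C and to 8330–9240 CPM at 8°C, with 6 of 6 called higher. The part of all these markers in the result was not tested.

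The same week of cold in HY/HY mice gave 0 of 10 genes called in either direction, where 0.181% of all genes were called higher and 0.0726% lower. DESeq2 called 0 as well, and 2 genes, *Bckdha* and *Bckdhb*, were higher at an unadjusted p under 0.05 with 0 lower. The median log2 fold change of the 10 genes was 0.42, beside -0.01 over all genes. Without replicate 3 at 30°C it was 0.75, above the 0.66 of WT mice in the same fit, so the order of the 2 medians turned with 1 library. *Bckdha* had 177, 160.3 and 272 CPM at 30°C and 315, 291 and 371 CPM at 8°C. Its groups did not overlap, and the log2 fold change was 0.68 (SE 0.22, adjusted p = 0.197). *Bckdhb* and *Dbt* had log2 fold changes of 0.42 (SE 0.19, adjusted p = 0.334) and 0.46 (SE 0.21, adjusted p = 0.341), with overlapping groups.

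*Bckdk*, which rose in WT mice, had 77.3, 100.5 and 96.4 CPM at 30°C and 92.6, 101 and 81.2 CPM at 8°C in HY/HY mice. The ranges overlapped almost completely, with a log2 fold change of 0.00 (SE 0.15, adjusted p = 0.994). *Bcat2* spread widely, with 139.7, 81.0 and 311 CPM at 30°C and 290.3, 213 and 477 CPM at 8°C. Its log2 fold change was 0.88 (SE 0.41, adjusted p = 0.349), and replicate 3 was the highest library at both temperatures. *Mccc1*, *Ivd* and *Hibadh* had log2 fold changes of 0.56, 0.43 and 0.41, with adjusted p from 0.444 to 0.589 and overlapping groups.

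Replicate 3 at 30°C decided this comparison. Without it, 4 of the 10 genes were called higher, *Bcat2* (log2 fold change 1.57, adjusted p = 0.0294), *Bckdha* (0.95, adjusted p = 0.025), *Dbt* (0.79, adjusted p = 0.0229) and *Mccc1* (1.08, adjusted p = 0.0377), while over the other alternatives their adjusted p stayed above 0.05. Calls outside the set rose as well. Among the nuclear genes of oxidative phosphorylation, described further below, 15 were called higher in that fit and 1 in the main fit. The share over all genes was not counted for that fit. Replicate 3 at 30°C held 484 CPM of *Ivd* against 259 and 158 CPM in the other 2 of its group, and 389.6 CPM of *Hibadh* against 238 and 213 CPM. It also had the highest share of counts on mitochondrial DNA at 30°C, 16.8% against 9.32% and 9.76% in its group.

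**Figure D2:**
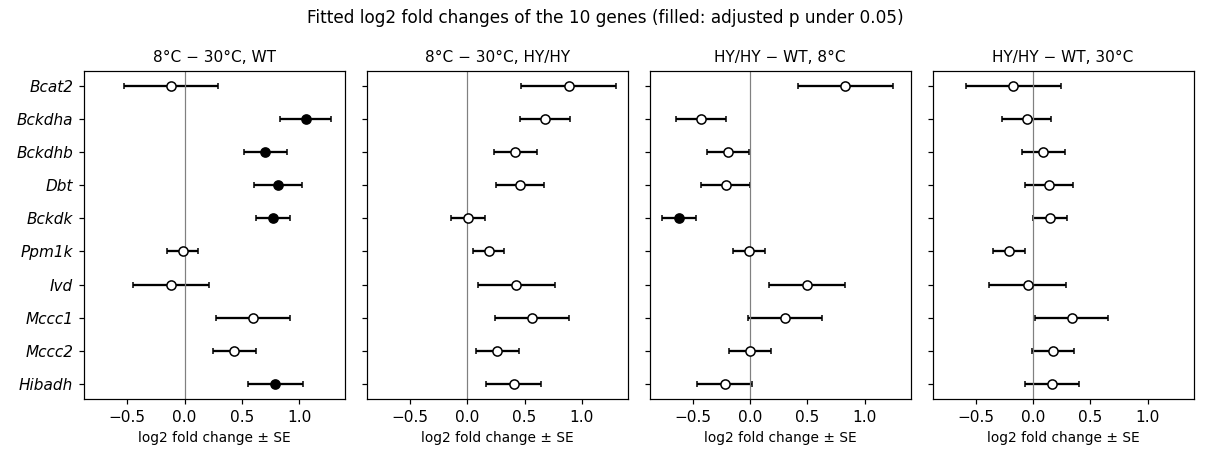
Fitted log2 fold change (x axis) of each of the 10 genes (y axis) with its SE, from edgeR, in the cold response of WT mice, the cold response of HY/HY mice, and the comparison of the genotypes at 8°C and at 30°C. Filled points have an adjusted p under 0.05: 5 genes for cold in WT mice, *Bckdk* alone between the genotypes at 8°C, and 0 in the other 2 panels.

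The genotypes were then compared directly. At 8°C, *Bckdk* was lower in HY/HY than in WT mice, and it was the only 1 of the 10 genes called, with 0 called higher (also 0 at an unadjusted p under 0.05 and by DESeq2). Over all genes, 5.45% were called lower and 1.91% higher. *Bckdk* stood at 92.6, 101 and 81.2 CPM against 138, 142 and 144 CPM, with no overlap and a log2 fold change of -0.63 (SE 0.15, edgeR adjusted p = 0.0265). DESeq2 called it too, with an adjusted p of 0.00202. The call was lost with unscaled library totals (log2 fold change -0.48, adjusted p = 0.057), and without any 1 of the 3 WT libraries or replicate 1 or 3 of the HY/HY mice (adjusted p from 0.0689 to 0.121). In each of these the direction was kept.

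The other complex genes were below or near their WT levels at 8°C, whereas *Bcat2* and *Ivd* were above them, and none of these passed the test. *Bckdha* stood at 315, 291 and 371 CPM against 451, 471 and 397 CPM, which did not overlap, for a log2 fold change of -0.43 (SE 0.22, adjusted p = 0.267), which was -0.08 when both strands were counted together. *Bckdhb* and *Dbt* had log2 fold changes of -0.19 (SE 0.19) and -0.21 (SE 0.21), with overlapping groups. *Bcat2* stood at 290.3, 213 and 477 CPM against 169.8, 194 and 187 CPM, again without overlap, for a log2 fold change of 0.83 (SE 0.41, adjusted p = 0.263). *Ivd* stood at 364, 326 and 521 CPM against 260.0, 285 and 313 CPM, also without overlap, for a log2 fold change of 0.50 (SE 0.33, adjusted p = 0.423). White adipocyte markers summed to 29558–43113 CPM in HY/HY mice against 24620–32643 CPM in WT mice at 8°C, with *Adipoq* at 3197, 2639 and 3413 CPM against 1214, 1529 and 1747 CPM. Macrophage markers summed to 194–256 CPM in HY/HY against 114–125 CPM in WT mice, with *Csf1r* (log2 fold change 1.17, SE 0.23, edgeR adjusted p = 0.0119) and *Mrc1* (1.22, SE 0.20, edgeR adjusted p = 0.00534) called higher. Mammary epithelium markers summed to 879–1295 against 1371–1513 CPM, a sum carried by *Krt8* and *Krt18*, which lay lower in HY/HY mice without overlap. *Krt14*, *Krt5* and *Csn3* of the same list lay higher without overlap, and *Epcam* overlapped. None of the mammary genes tested was called, and their median log2 fold change was 0.395. Thermogenic markers summed to 525–1665 CPM in HY/HY against 8330–9240 CPM in WT mice, with 5 of the 6 called lower. The part of the white adipocyte, thermogenic, macrophage and mammary markers in the levels of the 10 genes was not tested.

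At 30°C, 0 of the 10 genes were called in either direction, and 0 had an unadjusted p under 0.05 or were called by DESeq2. Over all genes, 0.568% were called higher and 0.49% lower. The libraries of the genotypes overlapped for each gene, and the log2 fold changes ran from -0.21 for *Ppm1k* (SE 0.14, adjusted p = 0.441) to 0.34 for *Mccc1* (SE 0.32, adjusted p = 0.617). With SEs of up to 0.41 for *Bcat2*, these mice could not show a modest difference in the more variable genes.

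The interaction, in which the log2 effect of cold in WT was subtracted from that in HY/HY, tests whether the responses differed. No member passed it in either direction, beside 0.169% of all genes called higher and 2.07% lower. *Bckdk* came nearest, with a difference in log2 fold change of -0.77 (SE 0.21, edgeR adjusted p = 0.0877), and was the 1 gene under an unadjusted p of 0.05. DESeq2 called it (-0.80, adjusted p = 0.0171). So did edgeR without WT replicate 3 at 30°C (-0.94, adjusted p = 0.0189) or without HY/HY replicate 1 at 30°C (-0.88, adjusted p = 0.0372). For the other complex genes the difference was -0.38 (SE 0.31) for *Bckdha*, -0.28 (SE 0.27) for *Bckdhb* and -0.36 (SE 0.30) for *Dbt*. Without HY/HY replicate 3 at 30°C these shrank to -0.11, -0.075 and -0.033, and with both strands counted that of *Bckdha* was -0.087. For *Bcat2* it was 1.00 (SE 0.58, adjusted p = 0.453), in the opposite direction.

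The balance of kinase to phosphatase transcripts was compared within each library, as the log2 ratio of *Bckdk* to *Ppm1k* counts. Because both counts come from 1 library, this ratio does not depend on how library sizes are scaled. It was 2.16, 1.93 and 2.47 in WT mice at 30°C and 2.92, 3.14 and 2.92 at 8°C. In HY/HY mice it was 2.19, 2.89 and 2.57 at 30°C and 2.59, 2.52 and 2.02 at 8°C. The WT libraries at 8°C lay above the other 9.

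The ratio was higher by 0.81 (SE 0.17) at 8°C than at 30°C in WT mice, and lower by the log2 difference of -0.62 (SE 0.19) in HY/HY than in WT mice at 8°C. Each gave p = 0.1 in an exact permutation test (two-sided, 3 against 3 libraries), the smallest p this design allows. In HY/HY mice the difference between 8°C and 30°C was -0.18 (SE 0.27, exact p = 0.6), and between the genotypes at 30°C it was 0.37 (SE 0.26, exact p = 0.2). The 4 p-values are not adjusted, since none could pass 0.05.

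**Figure D3:**
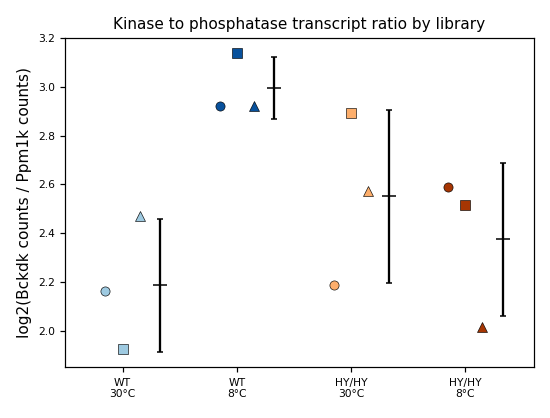
Log2 ratio of *Bckdk* to *Ppm1k* counts (y axis) in each of the 12 libraries by genotype and temperature (x axis), 1 point per library, with the mean and SD of each group (n = 3). The WT libraries at 8°C lie between 2.92 and 3.14, and the other 9 between 1.93 and 2.89.

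The 10 genes varied together unevenly across the 12 libraries. Each gene's log2 CPM was standardised over the libraries and the 10 were averaged. The Pearson correlation of single genes with this mean was 0.96 for *Hibadh* and *Mccc2*, 0.95 for *Bckdhb*, 0.94 for *Mccc1*, 0.90 for *Bckdha* and 0.89 for *Dbt*. It was 0.76 for *Bcat2*, 0.74 for *Ivd*, and lowest for the regulators, 0.53 for both *Bckdk* and *Ppm1k*. Between pairs of genes it ran from -0.11 for *Bcat2* with *Bckdk* to 0.97 for *Mccc1* with *Mccc2*. These values describe 12 libraries that share the group differences, and each gene is part of the mean it was set against.

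The mean of the 10 genes was lowest in HY/HY replicate 2 at 30°C (-1.51) and highest in HY/HY replicate 3 at 8°C (1.10). These were also the libraries with the lowest and highest sums of white adipocyte markers, 13630 and 43113 CPM. Within each of the 4 groups, the library with the highest mean also had the highest sum of these markers. In both groups at 30°C and in WT mice at 8°C, the library with the highest mean also had the highest sum of thermogenic markers. HY/HY mice at 8°C did not follow this order. Their replicate 3 had the highest mean of the 10 genes and the lowest thermogenic sum at that temperature, 525 CPM. The part of fat cell content in the levels of the 10 genes was not tested.

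**Figure D4:**
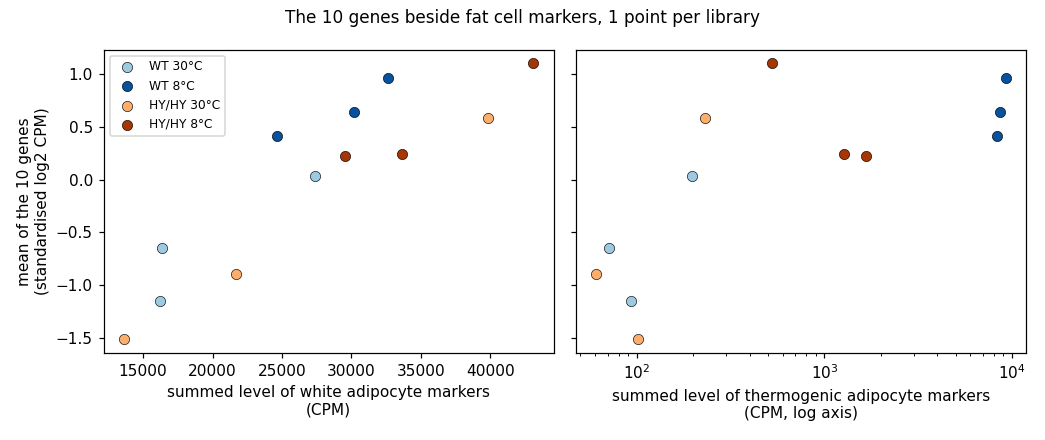
Mean standardised log2 CPM of the 10 genes (y axis) against the summed CPM of white adipocyte markers (left) and of thermogenic adipocyte markers (right, log axis), with 1 point per library coloured by genotype and temperature. The mean runs from -1.51 to 1.10, and at 8°C the WT libraries lie at 8330–9240 CPM of thermogenic markers and the HY/HY libraries at 525–1665 CPM.

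The genes outside the set with at least 10 counts on average and the profile most like this mean were *Ccbl2* (r = 0.98), *Atp6v1e1* (r = 0.97), and *Hibch*, *Gcdh* and *Acad8* (each r = 0.96), over 12 libraries. *Ccbl2* encodes a kynurenine aminotransferase, *Atp6v1e1* a subunit of the vacuolar proton pump and *Gcdh* the glutaryl-CoA dehydrogenase of lysine breakdown. *Hibch* and *Acad8* encode enzymes of valine breakdown.

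The rest of the pathway was followed in 18 further genes for uptake, the shared dihydrolipoamide dehydrogenase, and the later steps of leucine, valine, isoleucine and propionyl-CoA. In WT mice, cold raised 9 of the 18 and lowered 0, beside 13.2% of all genes called higher and 10.9% lower. The median log2 fold change of the 18 was 0.56. DESeq2 called 10 higher and 0 lower, and 0 were lower at an unadjusted p under 0.05. The largest rises were those of *Mcee*, *Dld* and *Pcca*. The other genes that rose were *Acat1*, *Pccb*, *Mut* (the methylmalonyl-CoA mutase, *Mmut*), *Echs1*, *Hibch* and *Acad8*, so that 4 of the 9 act between propionyl-CoA and succinyl-CoA. The count fell to 4 without WT replicate 1 or 2 at 30°C or replicate 2 at 8°C, to 5 without replicate 3 at 8°C, and to 6 without replicate 1 at 8°C or with unscaled library totals.

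*Mcee* encodes the methylmalonyl-CoA epimerase. Its level was 26.9, 31.9 and 36.2 CPM in WT mice at 30°C and 128, 133 and 136 CPM at 8°C, a log2 fold change of 2.06 (SE 0.15, edgeR adjusted p = 1.68e-05). In HY/HY mice it was 30.6, 26.7 and 39.1 CPM at 30°C and 49.99, 56.6 and 46.9 CPM at 8°C, so that in the cold every HY/HY library lay far below every WT library.

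*Dld* encodes the dihydrolipoamide dehydrogenase that this complex shares with the pyruvate and 2-oxoglutarate dehydrogenase complexes. It went from 163, 169 and 185 CPM to 528, 618 and 612 CPM in WT mice, a log2 fold change of 1.76 (SE 0.19, edgeR adjusted p = 9.6e-05). In HY/HY mice it had 196, 256 and 345 CPM at 30°C and 353, 398 and 458 CPM at 8°C. *Pcca*, the alpha subunit of propionyl-CoA carboxylase, had a log2 fold change of 1.49 (SE 0.22, edgeR adjusted p = 0.000733) in WT mice.

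In HY/HY mice 0 of the 18 genes were called between 8°C and 30°C by edgeR, beside 0.181% of all genes called higher and 0.0726% lower. DESeq2 called 2 higher and 0 lower, 6 were higher and 0 lower at an unadjusted p under 0.05, and 9 were called higher without replicate 3 at 30°C and 1 with the replicate number as a block. At 8°C, 1 of the 18 was higher and 1 was lower in HY/HY than in WT mice, with a median log2 fold change of -0.07. The shares over all genes were 1.91% higher and 5.45% lower, and 1 lower gene of 18 lies near the latter. *Abat*, the aminotransferase for 4-aminobutyrate that also acts in valine breakdown, was higher at 6.73, 5.001 and 11.3 CPM against 2.23, 1.96 and 1.80 CPM, a log2 fold change of 1.93 (SE 0.39, edgeR adjusted p = 0.0131). *Mcee* was lower by the log2 fold change of -1.37 (SE 0.15, edgeR adjusted p = 0.000898). The call of *Abat* was lost without WT replicate 2 or 3 or HY/HY replicate 3 at 8°C, while that of *Mcee* was kept in all 21 alternatives.

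At 30°C, 0 of the 18 differed between the genotypes by edgeR, 1 was higher by DESeq2, and 3 were higher and 0 lower at an unadjusted p under 0.05. The shares that edgeR called there over all genes were 0.568% higher and 0.49% lower. *Bcat1* and the transporters *Slc7a5* and *Slc3a2*, which bring the amino acids into the cell, were called in no comparison. *Slc25a44*, the carrier that brings them into the mitochondrion, had a log2 fold change of 0.57 (SE 0.23, adjusted p = 0.0932) by cold in WT mice and was called in no comparison either.

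**Figure D5:**
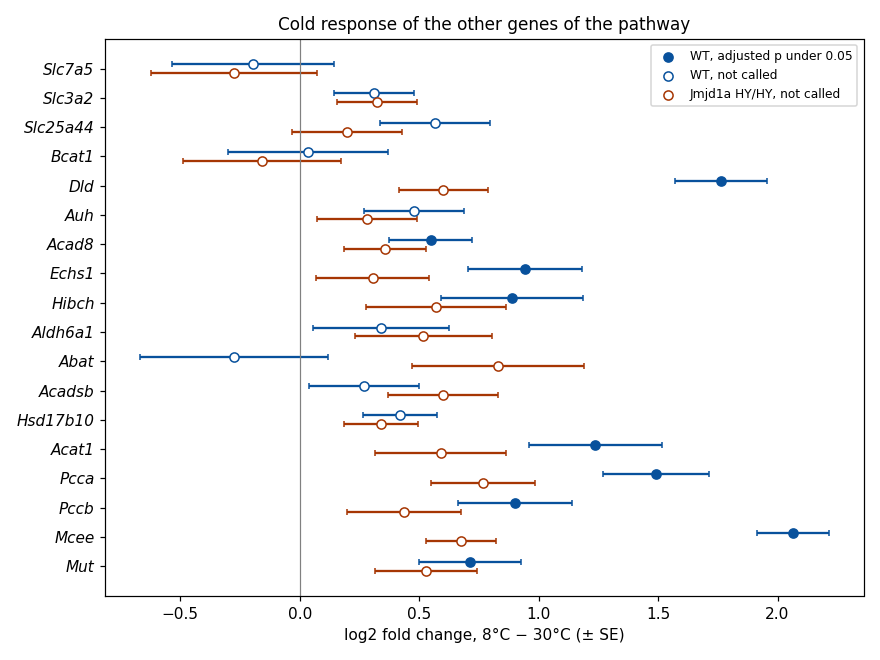
Fitted log2 fold change by cold, 8°C against 30°C (x axis), with its SE, for 18 further genes of the pathway (y axis) in WT (blue) and HY/HY mice (brown), from edgeR. Filled points have an adjusted p under 0.05, which 9 genes had in WT mice and 0 in HY/HY mice.

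Other mitochondrial genes put these values in proportion. Of 12 genes for the pyruvate and 2-oxoglutarate dehydrogenase complexes and their regulators, cold in WT mice raised 10 with a median log2 fold change of 1.68, and of 82 nuclear genes gathered by the symbol patterns of oxidative phosphorylation subunits it raised 74 with a median of 1.47. These patterns also took in a few genes that encode no subunit, among them *Cox4nb* and *Atp5sl*. At 8°C, 6 of the 12 and 69 of the 82 were lower in HY/HY than in WT mice, with medians of -0.63 and -0.997, beside 1 of the 10 genes with a median of -0.10. For the interaction, 4 of the 12 and 45 of the 82 were called lower, with medians of -1.11 and -1.12, beside 0 of the 10 with a median of -0.23. The last median was 0.02 without HY/HY replicate 3 at 30°C, and the median of the 10 genes at 8°C was 0.03 with unscaled library totals, where that over all genes was 0.15. Over the alternatives run, the lower counts at 8°C ran from 2 to 9 of the 12 and from 41 to 76 of the 82. They were 2 or 3 of the 12 without any 1 library at 8°C, and 41 of the 82 without HY/HY replicate 3 at 8°C. For the interaction they ran from 0 to 7 of the 12 and from 11 to 67 of the 82. They were 0 or 1 of the 12 and 11 to 20 of the 82 without WT replicate 1 or 2 at 30°C or any 1 library at 8°C, and 28 of the 82 without HY/HY replicate 2 at 30°C. The lists differ in size and level, and no test of one list against another was made.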

How the data were processed

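RNA-seq libraries of scWAT from 12 female mice, 3 per group, were analysed. The authors prepared them with a TruSeq kit, sequenced paired 50-base reads, used fastp for trimming and STAR for alignment to mm10, and deposited raw counts of read pairs per gene, with the annotation of GENCODE M25; tool versions are not given in the sources used here. The column of sense-strand counts was used. Rows that name no gene held 55.8% to 63.5% of read pairs and were left out. Of 55401 gene IDs, 32589 were matched to a symbol.

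Counts were filtered with filterByExpr, scaled by TMM and fitted with 1 mean per group by the quasi-likelihood test of edgeR 4.0.16 in R 4.3.3 (8 residual degrees of freedom, two-sided p-values adjusted by Benjamini-Hochberg over 16540 genes). The SE is the log2 fold change divided by the square root of F. The script was tested on simulated data. P-values measure the spread between these mice. Overlap between the libraries of groups is given only to describe levels, and its share over all genes was not counted.

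The alternatives were DESeq2 1.42.0 and its size factors, library totals, other filters, libraries of the comparison alone, the replicate number as a block, both strands together, a fold limit, and each library left out in turn. The ratio of *Bckdk* to *Ppm1k* used a pseudocount of 0.5. Merged exon lengths came from GENCODE M1, and gene positions and promoters from RefSeq on GRCm38.p6.

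The genes and lists were chosen with earlier results of these data known. All 10 genes are named, further pathway genes by the 3 largest rises and falls among those called plus *Dld* and *Bcat1*, and other names after their values were seen. The CCAAT and GC boxes were also chosen afterwards. One further gene set down for the pathway list is not reported here.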

Additional observations from a re-analysis of the deposited data

Results flagged for a closer look

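The cold response differed between the genotypes, by the interaction test of edgeR, in 2 of the 18 further genes of the pathway. Both were called lower, beside 2.07% of all genes. *Mcee* rose less in HY/HY than in WT mice, by a log2 difference of -1.39 (SE 0.21, adjusted p = 0.0113), and passed in all 20 alternatives with an adjusted p of at most 0.044. *Dld* differed by -1.16 (SE 0.27, adjusted p = 0.0445) and passed in 10 of 20 alternatives, with an adjusted p from 0.000994 to 0.13. All 3 HY/HY libraries at 8°C lay below all 3 WT libraries at 8°C for both genes. For *Dld*, all 3 HY/HY libraries at 30°C also lay above all 3 WT libraries at 30°C, so its interaction joined a log2 fold change between the genotypes of 0.62 (SE 0.19, adjusted p = 0.115) at 30°C and one of -0.54 (SE 0.19, adjusted p = 0.107) at 8°C. *Dld* was called in 3 of 21 alternatives at 30°C and in 4 of 21 at 8°C.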

How the results depend on the processing

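The count of the 10 genes raised by cold in WT mice was 5. It was 7 with the replicate block, which changed no other count of the 10 genes, and from 2 to 6 when a library was left out. In HY/HY mice the count was 0 and ran from 0 to 4 when a library was left out. The count of genes lower in HY/HY mice at 8°C was 1, became 0 with library totals and 2 with only the libraries of the comparison (*Bckdha* and *Bckdk*), and ran from 0 to 1 with a library left out. The count lower for the interaction was 0, became 1 by DESeq2, and ran from 0 to 1 with a library left out. The cause was not tested in any of these. The other counts of the 10 genes stayed at 0 in the alternatives that were run. *Hibadh* lost its call by cold in WT mice with library totals (adjusted p = 0.0538), which moved the median over all genes to -0.41 on the log2 scale and that over the 10 genes to 0.33.

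Log2 fold changes near 0 turned sign without passing the test. *Ppm1k* by cold in WT mice was 0.0195 by DESeq2 and 0.0193 with its size factors in edgeR, and ran from -0.084 to 0.058 with a library left out. *Bcat2* ran from -0.28 to 0.070 and *Ivd* from -0.21 to 0.094 in the same way. *Bckdk* by cold in HY/HY mice was -0.12 with library totals, -0.015 without a filter and -0.0044 with at least 10 counts in every library, and ran from -0.10 to 0.084. *Mccc1* between the genotypes at 30°C ran from -0.17 to 0.59. The *Bckdk* to *Ppm1k* ratio by cold in HY/HY mice ran from -0.36 to 0.0026, whereas the other 3 differences in this ratio kept their direction in the alternatives run.

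Deviations of same-numbered libraries correlated at -0.06 to 0.35 in 12 pairs. In the cold response of HY/HY mice all 3 pairs were over 0.1 (0.11 to 0.30), and the replicate block left 0 of the 10 genes called there with a median log2 fold change of 0.46. In each of the other 3 comparisons 1 pair was not over 0.1. With 3 libraries a group, these correlations cannot decide whether the numbers pair samples, and the main fit did not pair them. All libraries at 8°C were shallower than those at 30°C, so depth and temperature cannot be told apart.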
